A study of Mus musculus with 18 samples.

Results

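Fatty acid beta-oxidation was followed through 9 genes chosen by name, Cpt1a, Cpt1b, Cpt2, Acadm, Acadl, Acadvl, Hadha, Hadhb and Ehhadh, of 33440 genes quantified. All 9 passed the filter on low counts in each comparison. The data are RNA-seq from mouse adipocytes in which IRF3, a transcription factor of the innate immune response, was made active or removed. In the first experiment, cells of the inguinal stromal vascular fraction (SVF) of C57BL/6 IRF3-2D mice, which carry an active form of Irf3 that Cre switches on, were differentiated into adipocytes and transduced with AAV-Cre (FI3OE, 3 libraries) or AAV-GFP (WT, 3 libraries). The WT cells hold that allele unrecombined, so Cre and active IRF3 cannot be told apart in this contrast. These cells were kept with rosiglitazone, a PPARγ agonist, and with insulin. In the second experiment, RNA on tagged ribosomes was pulled down by TRAP from epididymal fat of FI3KO-Ad-NuTRAP mice, which lack IRF3 in adipocytes (FI3KO, 6 libraries), and of Ad-NuTRAP mice (WT, 6 libraries). Both groups of C57BL/6 mice had been fed HFD at thermoneutrality for 8 weeks, and Adipoq-Cre, which acts in adipocytes, drives both the deletion and the tag. The labels used here give no age. Replicates are labelled biological, but no label says that each came from its own animal or culture, so p-values measure the spread between these libraries.

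Beta-oxidation shortens fatty acids by repeated removal of acetyl-CoA. Long-chain acyl-CoA enters mitochondria through the carnitine shuttle, in which CPT1 on the outer membrane makes acylcarnitine and CPT2 on the inner membrane turns it back into acyl-CoA. CPT1 is inhibited by malonyl-CoA, the product of acetyl-CoA carboxylase, which links oxidation to fat synthesis. Many of these genes are known targets of the PPAR nuclear receptors in liver and muscle. White adipocytes store fat and oxidise comparatively little of it.

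The genes lie apart from each other in the genome (GRCm38, GENCODE), with the exception of Hadha and Hadhb. Cpt1a (ENSMUSG00000024900.5) is at chr19:3322334-3385733, Cpt1b (ENSMUSG00000078937.8) at chr15:89416405-89425863 and Cpt2 (ENSMUSG00000028607.16) at chr4:107903981-107923610. Acadm (ENSMUSG00000062908.12) is at chr3:153922357-153944632, Acadl (ENSMUSG00000026003.5) at chr1:66830839-66863277 and Acadvl (ENSMUSG00000018574.14) at chr11:70010183-70015411. Hadha (ENSMUSG00000025745.12) is at chr5:30118304-30155162, Hadhb (ENSMUSG00000059447.13) at chr5:30155248-30184593 and Ehhadh (ENSMUSG00000022853.7) at chr16:21761287-21787807. Cpt1a and Hadhb are on the plus strand, the other 7 on the minus strand.

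Promoter sequence is shown for the members whose levels are compared most below and that hold a nuclear receptor half-site. RefSeq promoter windows of GRCm38.p6, from 250 bases before to 50 after the gene's start, were found for 8 of the 9 genes, all but Cpt1b. The letters AGGTCA, searched on both strands, were in the windows of 3 members, Cpt1a, Acadm and Acadvl, and in 16.3% of all 32851 windows. The runs below end before the RefSeq start, are written 5′ to 3′ on the strand of the gene, and have AGGTCA or its reverse complement in capitals. They lie at chr19:3323051-3323284 on the plus strand, chr3:153944644-153944893 on the minus strand and chr11:70015429-70015678 on the minus strand, in that order. That of Cpt1a stops short of the RefSeq start at 3323301, and lies within the GENCODE gene, which starts at 3322334.
Cpt1a: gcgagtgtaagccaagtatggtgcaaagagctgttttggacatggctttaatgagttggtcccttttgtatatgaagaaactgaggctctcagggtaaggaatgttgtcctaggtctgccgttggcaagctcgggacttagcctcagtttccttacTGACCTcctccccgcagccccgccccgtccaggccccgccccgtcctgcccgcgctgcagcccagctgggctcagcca
Acadm: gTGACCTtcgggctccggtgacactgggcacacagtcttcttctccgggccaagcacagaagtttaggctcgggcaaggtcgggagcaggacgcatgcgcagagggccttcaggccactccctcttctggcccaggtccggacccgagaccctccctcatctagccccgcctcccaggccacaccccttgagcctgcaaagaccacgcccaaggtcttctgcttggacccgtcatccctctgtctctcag
Acadvl: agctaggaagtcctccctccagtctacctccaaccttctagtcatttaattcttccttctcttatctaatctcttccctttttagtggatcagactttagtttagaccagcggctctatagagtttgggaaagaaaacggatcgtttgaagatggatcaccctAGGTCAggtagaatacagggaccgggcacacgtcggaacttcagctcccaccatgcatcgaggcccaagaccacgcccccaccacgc
The half-site begins 94 bases before the RefSeq start in Cpt1a, 249 in Acadm and 87 in Acadvl. A direct repeat of AGGTCA with 1 base between the copies, which contains the half-site and is the classical PPAR form, was in 0 of the 8 windows and in 0.0396% of all. A pair of GAAA with 2 bases between, as found in interferon response elements, was in 0 of the 8 windows and in 3.44% of all. This says only that these letters are not in these windows.

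Hadha and Hadhb, which code for the subunits of the mitochondrial trifunctional protein, start head to head. The 85 bases between their annotated starts, at chr5:30155163-30155247 of GRCm38, are shown on the plus strand, along which Hadhb is read, because the levels of the pair are compared below. GGGCGG or its reverse complement, the core of a GC box, is in capitals.
Hadha-Hadhb: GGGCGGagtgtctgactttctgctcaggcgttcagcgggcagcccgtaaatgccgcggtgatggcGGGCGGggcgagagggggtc
GGGCGG was in the windows of 6 of the 8 members and in 35.7% of all windows, searched on both strands.

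Before the results, the libraries were checked against their labels. They held 21541334 to 40490283 reads. Irf3 itself was at 90.8 to 100.3 CPM, the reads of a gene scaled to the same total in each library, in FI3OE and 56.8 to 58.6 in WT SVF-derived adipocytes. In TRAP libraries Irf3-202, one of the protein-coding transcripts, had 0 reads in all 6 FI3KO libraries and 163.6 to 388.1 in WT libraries. Other protein-coding transcripts kept reads in FI3KO. Irf3-211 went the other way, with 89.9 to 175.3 reads in FI3KO and 0 to 7.6 in WT. Irf3-201 (0 to 99.4 against 10.7 to 73.7) and Irf3-213 (81.7 to 132.9 against 0 to 175.4) overlapped. Irf3 summed over its transcripts was lower in FI3KO (log2 fold change -0.35 ± 0.106 SE, adjusted p = 0.0198, and +0.71 with an offset for transcript length). The 12 adipocyte markers summed to 43980 to 51000 CPM in WT TRAP and to 37380 to 43250 in FI3KO TRAP, which do not overlap. In cultures they summed to 12920 to 13060 CPM in WT and 12280 to 12320 in FI3OE, which do not overlap either. Each had more than 3 reads somewhere in every group. In FI3KO 5 of the 12 were higher and 2, Lep and Dgat2, lower (median log2 fold change 0.20). Over all genes 19.1% were higher and 18.3% lower there. Lep, at a mean of 9580 CPM in WT and 2970 in FI3KO, was the marker whose mean fell most. In FI3OE 4 of the 12 were higher and 6 lower (median -0.07), against 20.2% and 16.8% of all genes. The 10 preadipocyte and fibroblast markers summed to 14110 to 14510 CPM in cultures, to 987.3 to 2231 in WT TRAP and to 556.4 to 1047 in FI3KO TRAP. The 15 macrophage markers summed to 2281 to 2435 CPM in WT and 2185 to 2198 in FI3OE cultures, to 52.5 to 122.6 in WT TRAP and to 19.1 to 56.6 in FI3KO TRAP. The 9 brown and beige markers summed to 97.4 to 110.3 CPM in WT and 88.8 to 90.8 in FI3OE cultures, and to 117.6 to 150.7 in WT and 77.5 to 104.3 in FI3KO TRAP, and Ucp1 had at most 6 reads in a library. Most of the TRAP sum was Kcnk3, at a mean of 121 CPM in WT and 77.2 in FI3KO. In FI3KO 1 of the 7 brown and beige markers tested was lower and 0 higher (median log2 fold change -0.195). The part of these markers in the FI3OE and FI3KO results was not tested. In FI3KO TRAP, libraries 1 and 2 stood apart from 3 to 6, with a chi-square per degree of freedom over genes of 110.73 to 267.89 between the sets and at most 86.25 within them, for a reason the labels do not give. Within these sets the FI3KO pairs 1 and 2 (34.91), 3 and 4 (17.62) and 5 and 6 (16.88) were closer than the rest (56.54 to 86.25). In WT TRAP the separation is less clear, with 74.36 to 129.95 between the sets and up to 126.26 within replicates 3 to 6. WT TRAP replicates 1 and 2 were the closest pair, at 2.54 where the other WT TRAP pairs had 8.41 to 129.95. Pairs of cultures within a group had 3.85 to 7.73. The 2.54 is more than counting noise, which does not show that the 2 came from separate animals. They were kept as 2 libraries. Results are given within each set where this matters. In bulk samples fewer cells of a type and less RNA per cell cannot be told apart.

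The baseline question was how much of each enzyme's RNA wild-type adipocytes hold. Levels between genes were compared per length, in TPM. Acadm, the medium-chain acyl-CoA dehydrogenase, was highest in both wild-type groups when all transcripts were summed, at 446 ± 7.92 TPM in SVF-derived adipocytes (SD, n = 3) and 858 ± 76.7 in TRAP (SD, n = 6). Hadhb, the thiolase subunit, followed at 352 ± 7.64 and 447 ± 34.9 TPM. In SVF-derived adipocytes the order went on with Hadha, the hydratase and dehydrogenase subunit (313 ± 14.4), the long-chain dehydrogenase Acadl (274 ± 10.9), the very-long-chain dehydrogenase Acadvl (225 ± 5.03), and Cpt2 (156 ± 2.45). Far below stood Cpt1a, the liver form of CPT1, at 31.2 ± 1.31 TPM, the peroxisomal bifunctional enzyme Ehhadh at 18.2 ± 1.38 and the muscle form Cpt1b at 12.4 ± 0.318. In TRAP 2 neighbours changed places, with Acadl (319 ± 38.6) before Hadha (216 ± 12.6), and then Acadvl (160 ± 10.3), Cpt2 (117 ± 10.1), Cpt1a (88.5 ± 8.72), Ehhadh (38.1 ± 4.03) and Cpt1b (4.23 ± 1.91). No 2 neighbours in either order overlapped in their per-library ranges.

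**Figure D1:**
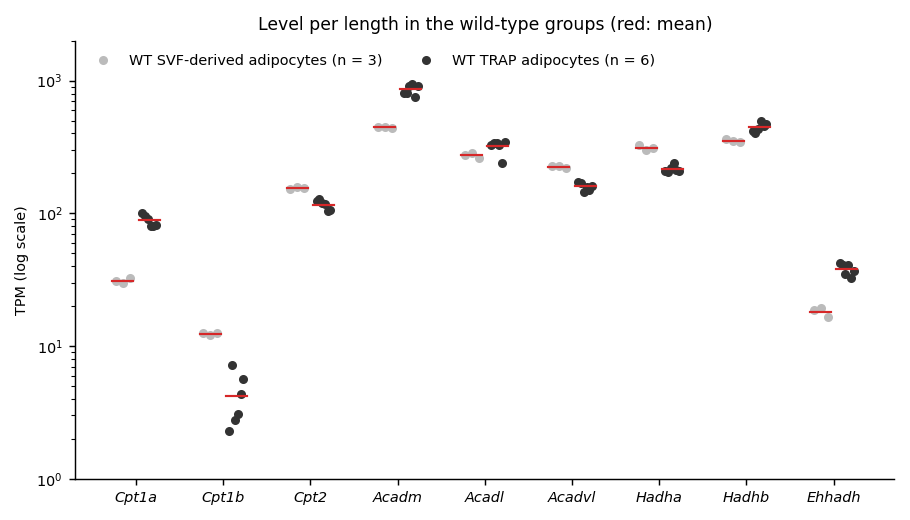
Level per length of the 9 enzymes in the 2 wild-type groups. Each point is 1 library and the red bar is the mean, on a log scale of TPM. Within SVF-derived adipocytes Cpt1a is 31.2 TPM and Cpt1b 12.4, and within TRAP they are 88.5 and 4.23.

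Of the CPT1 forms Cpt1a was highest in both wild-type groups. Cpt1c, the form best known from brain and no member here, was at 21.9 ± 2.73 TPM in SVF-derived adipocytes (SD, n = 3), above Cpt1b, and at 0.985 ± 0.277 in TRAP (SD, n = 6), below it. The ratio of Cpt1a to Cpt1b TPM was 2.51 ± 0.0669 (SD, n = 3) in SVF-derived adipocytes and ranged from 13.3 to 44.0 over the 6 WT TRAP libraries. The same ratio of CPM was 4.71 ± 0.642 (SD, n = 3) and 24.5 to 101. Short transcripts weigh on the TPM: in WT TRAP replicate 2 the 339-base retained-intron Cpt1b-202 gave 3.64 of 7.24 TPM on 11 reads. Cpt1b of the TRAP libraries rests on few reads, 24 to 138 per WT library, and reads are shared with Gm44502, a readthrough gene of Chkb and Cpt1b on the same strand, which had reads in 2 WT TRAP, 1 FI3KO TRAP and 1 WT SVF libraries. Acadvl overlaps Dvl2 and Hadha overlaps Garem2 on the opposite strand. These libraries do not mark strand, so reads of such overlaps cannot be told apart. In Hadha the most abundant transcript, Hadha-201, is annotated as noncoding, so the protein-coding sum of that gene is lower by construction. The order rests on this choice: with protein-coding transcripts alone, 4 of 9 members kept their place in each wild-type group. In SVF-derived adipocytes Hadhb (343 TPM) then stood above Acadm (263). The 690-base retained-intron Acadm-210, left out of that sum, held 131.1 to 147.0 TPM there on 11.4 to 13.2% of Acadm reads. In TRAP Hadha moved from place 4 to 8, at 33.6 TPM.

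Against all genes, the wild-type TRAP and wild-type SVF libraries were compared next. The groups differ at once in fat depot, culture, diet, RNA fraction and the alleles they carry, and these cannot be told apart. TRAP was higher in 5 of the 9 enzymes and lower in 2, where 80.2% of 16454 genes tested were called, 38.1% higher and 42.1% lower. With the fold cutoff of log2 1 added, 3 were higher and 1 lower, against 46.9% of all genes, 17.4% higher and 29.5% lower. CPM did not overlap between the groups in 8 of the 9, all but Acadl, and in 78.3% of all genes. Cpt1a was 2.74-fold higher (log2 fold change 1.46 ± 0.110 SE, adjusted p = 5.20e-07), Acadm 2.71-fold (1.44 ± 0.0662, adjusted p = 1.15e-08) and Ehhadh 2.76-fold (1.47 ± 0.102, adjusted p = 2.87e-07). Cpt1b was 2.95-fold lower (-1.56 ± 0.328, adjusted p = 0.00122). Hadhb was higher by 0.63 on the log2 scale (adjusted p = 5.80e-06), Acadl by 0.59 (adjusted p = 0.000233), and Hadha lower, at -0.19 (adjusted p = 0.00662). Cpt2 at -0.01 and Acadvl at -0.10 did not pass the test. These values come from the scaling used (TMM). With plain library totals every fold change here shifts, the median of all genes moving by -0.46, and the split becomes 4 higher and 4 lower, with Cpt2 at -0.47 and Acadvl at -0.56 then called and Acadl at 0.13 not. PGC-1α (Ppargc1a), a coactivator of oxidation genes, was lower in TRAP (-1.84 ± 0.135, adjusted p = 4.26e-07). The other named regulators were Ppara at -0.19, Pparg at 0.22 and Pdk4 at 0.07, with adjusted p values of 0.304, 0.00738 and 0.624, and Pparg and Pdk4 turn negative with plain library totals.

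Among the other genes of the pathway lists named by the rule here were Abcd2 at 4.53, Acaa1b at 3.86 and Ucp3 at 3.66 among the rises, and Cpt1c at -4.09, Ppargc1a, Acsl3 at -1.48 and Ppargc1b at -1.42 among the falls (log2 fold change, adjusted p of each at most 4.53e-05). Of the 16 other peroxisomal enzymes 14 were higher and 2 lower, and of the 16 other mitochondrial enzymes 14 were higher and 1 lower, against 38.1% and 42.1% over all genes. With plain library totals the counts were 10 and 3 of the peroxisomal (median 0.54) and 10 and 2 of the mitochondrial enzymes (median 0.56).

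The first gain-of-function question was whether active IRF3 alters these enzymes in SVF-derived adipocytes. Cpt1a, the gate of mitochondrial entry, rose, and 4 dehydrogenase and transferase genes fell. Beside them 5 of 8 brown and beige markers tested were lower and 0 higher (median -0.30). Of 9 members, 1 was higher and 4 lower past the test, where 20.2% of 16105 genes were called higher and 16.8% lower, 37% in all. At the additional fold cutoff of log2 1, which 3.62% of all genes passed (1.99% higher, 1.63% lower), 0 of the 9 remained, and by unadjusted p under 0.05 edgeR gave 6, where it gave 45.7% of all genes. The median of the 9 members was -0.03 on the log2 scale and that of all genes -0.01. By CPM, 6 members did not overlap between the groups, as did 49.8% of all genes tested.

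**Figure D2:**
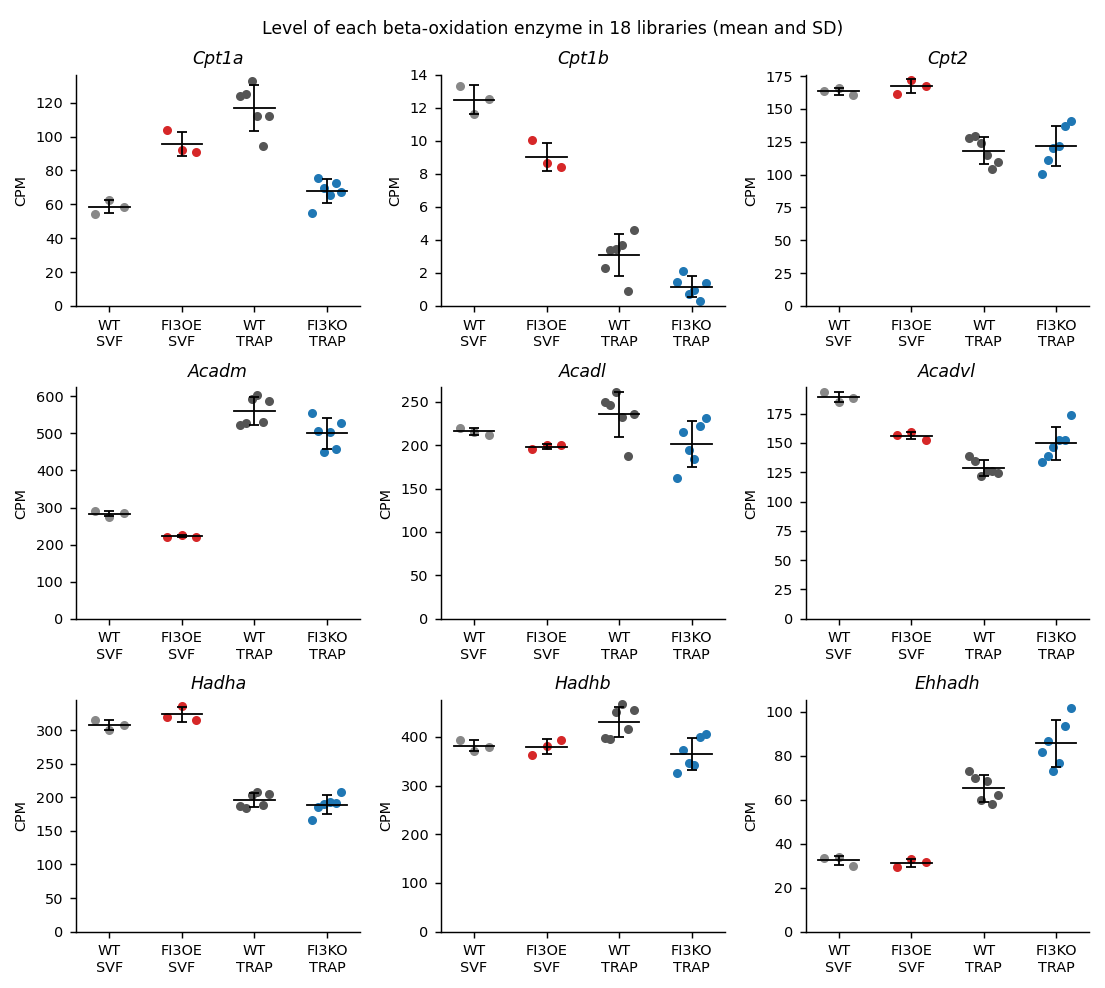
Level of each of the 9 enzymes in each of the 18 libraries, in CPM from 0 up. Points are libraries, bars the mean and SD. Cpt1a separates FI3OE (90.7 to 104.0) from WT (54.5 to 62.3) and FI3KO (55.2 to 75.7) from WT TRAP (94.3 to 132.7), and Cpt1b is low in TRAP.

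Cpt1a stood at 104.0, 92.2 and 90.7 CPM in the 3 FI3OE libraries and at 54.5, 62.3 and 58.7 in the 3 WT libraries. The groups did not overlap, and the rise was 1.65-fold (log2 fold change 0.72 ± 0.0604 SE, adjusted p = 3.03e-06). Across 17 alternative settings it kept its direction and call, between 0.67 and 0.85. The muscle form Cpt1b went the other way, at 10.0, 8.64 and 8.39 CPM in FI3OE and 13.3, 11.6 and 12.5 in WT. It was lower by 0.46 on the log2 scale (adjusted p = 0.00271), on 234 to 319 reads per library. This call was lost with an offset for transcript length and in a fit of all 18 libraries together. Cpt2 was at 161.6 to 172.4 in FI3OE and 160.8 to 165.9 CPM in WT, which overlap (0.05, adjusted p = 0.369). The ratio of Cpt1a to Cpt2 CPM, which no scaling can alter, was 0.573 ± 0.061 in FI3OE and 0.358 ± 0.0225 in WT (SD, n = 3 each).

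Acadm, which takes medium-chain substrates, was at 221.5, 226.5 and 221.0 CPM in FI3OE and 289.8, 275.6 and 286.3 in WT. It fell in FI3OE by 0.33 on the log2 scale (adjusted p = 2.58e-05), with no overlap. Acadvl was at 157.0, 159.0 and 152.8 in FI3OE against 193.7, 184.9 and 188.4 CPM in WT, a fall of 0.26 (adjusted p = 0.000204), a call also lost in the fit of all 18 libraries. Acadl was at 195.0 to 200.2 in FI3OE against 211.7 to 219.7 CPM in WT, lower by 0.10 (adjusted p = 0.0388). That last call was lost in 9 of 17 alternatives. Hadha at 314.7 to 335.9 against 300.1 to 314.6 CPM was just above WT in all 3 libraries, without passing the test (0.09, adjusted p = 0.0891). Hadhb and Ehhadh overlapped between groups, with log2 fold changes of 0.01 (adjusted p = 0.877) and -0.03 (adjusted p = 0.763). Of the 9 fitted changes in FI3OE, those of Cpt1a and Cpt1b were farthest from 0, in opposite directions. Cpt1c, which is no member, was higher in FI3OE, at 0.51.

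**Figure D3:**
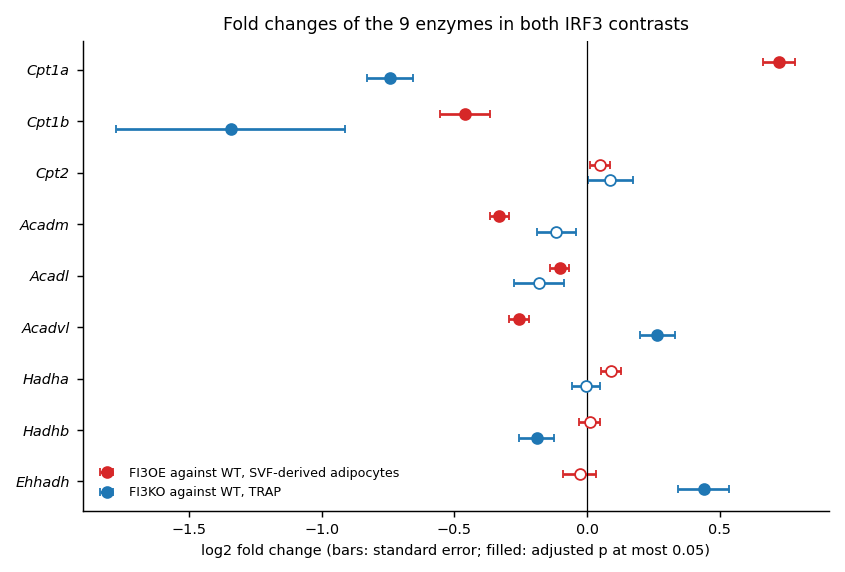
Log2 fold change of the 9 enzymes in FI3OE against WT (red) and FI3KO against WT (blue). Bars are standard errors and filled points are past an adjusted p of 0.05. Cpt1a is 0.72 in FI3OE and -0.74 in FI3KO, and Cpt1b is below 0 in both.

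The loss-of-function question was whether absence of IRF3 alters these enzymes in adipocytes of HFD-fed mice. Cpt1a and Cpt1b, both forms of CPT1, and Hadhb fell, while Acadvl and Ehhadh rose. Of 9 members, 2 were higher and 3 lower past the test, where 19.1% of 13624 genes were called higher and 18.3% lower, 37.4% in all. Of the 9, Cpt1b alone passed the fold cutoff as well, which 6.61% of all genes did (1.74% higher, 4.87% lower). The median of the 9 was -0.12 on the log2 scale and that of all genes 0.02. By CPM 2 of the 9, Cpt1a and Ehhadh, did not overlap between groups, as did 15.2% of all genes tested.

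Cpt1a was at 55.2 to 75.7 CPM in FI3KO (median 68.5) and 94.3 to 132.7 in WT (median 118.1). The FI3KO libraries all lay below the WT libraries, 1.67-fold lower (log2 fold change -0.74 ± 0.0872 SE, adjusted p = 0.000131). In each of 27 alternative settings the direction and the call held, between -0.87 and -0.67. The ratio of Cpt1a to Cpt2 CPM was 0.559 ± 0.0677 in FI3KO and 0.986 ± 0.0566 in WT (SD, n = 6 each), with no overlap. Cpt1b was at 0.272 to 2.13 CPM in FI3KO (median 1.2) and 0.933 to 4.58 in WT (median 3.44), on 11 to 66 reads in FI3KO. It was 2.54-fold lower (-1.34 ± 0.430, adjusted p = 0.0265). That call was lost in 7 of 27 alternatives. Among them were the fits without any 1 of 5 libraries, FI3KO replicate 3 or 4 or WT replicate 3, 4 or 6. The lowest WT library, replicate 5, holds more reads of Gm44502 than of Cpt1b. With the reads of Gm44502 added to Cpt1b, an alternative chosen after the data were seen, the groups no longer overlapped, with 0.74 to 2.13 CPM in FI3KO against 2.29 to 5.22 in WT, and the log2 fold change was -1.42 ± 0.252 (adjusted p = 0.00119).

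Ehhadh, of the peroxisome, was at 72.9 to 101.5 CPM in FI3KO (median 84.2) and 57.8 to 72.9 in WT (median 65.2). The lowest FI3KO library lay just above the highest WT library, 1.36-fold higher in the fit (0.44 ± 0.0953, adjusted p = 0.00371). Acadvl was at 134.1 to 173.9 CPM in FI3KO (median 149.3) and 122.0 to 138.8 in WT (median 126.0), overlapping in part, and rose by 0.26 (adjusted p = 0.00765). Hadhb was at 325.7 to 406.1 CPM in FI3KO (median 359.9) and 396.7 to 468.1 in WT (median 434.1), and was lower by 0.19 (adjusted p = 0.0384). This call was lost in 9 of 27 alternatives and turned to 0.07 with an offset for transcript length. The short retained-intron transcript Hadhb-208 took 2.62 to 13.8% of Hadhb reads in FI3KO and 0.247 to 4.16% in WT. The ratio of Hadha to Hadhb CPM was 0.519 ± 0.031 in FI3KO and 0.455 ± 0.0094 in WT (SD, n = 6 each), and did not overlap, whereas the same ratio of TPM did (0.446 to 0.585 against 0.444 to 0.509). Cpt2, Acadm, Acadl and Hadha did not pass the test, with log2 fold changes of 0.09, -0.12, -0.18 and 0.00 and adjusted p values of 0.440, 0.222, 0.151 and 0.967.

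The sets of replicates differ, so each was also fitted apart. In replicates 3 to 6, 3 members were higher and 4 lower past the test, where 50.6% of all genes were called. In replicates 1 and 2, 1 member, Cpt1a, was lower, where 3.56% were called. Cpt1a fell in both sets, with a log2 fold change of -0.87 ± 0.134 in the smaller set and -0.67 ± 0.0871 in the larger, a difference that did not pass the test (adjusted p = 0.404). The smaller set rests on 2 libraries a group, those of WT being the closest pair above, and with these counted as 1 library the fit over all replicates gave -0.72 (adjusted p = 0.000204). The summed macrophage markers were at 43.2 to 56.6 CPM in FI3KO and 52.5 to 52.7 in WT within replicates 1 and 2, and at 19.1 to 23.2 in FI3KO and 86.7 to 122.6 in WT within replicates 3 to 6. Of 14 macrophage markers tested, 11 were lower and 1 higher in FI3KO over all 12 libraries, against 18.3% and 19.1% of all genes. Each of the 15 had more than 3 reads in some library of both TRAP groups. The adipocyte markers, Lep among them, summed to 37380 to 39430 CPM in FI3KO and 45990 to 46280 in WT within replicates 1 and 2, and to 40660 to 43250 and 43980 to 51000 within replicates 3 to 6. The 8 endothelial markers summed to 70.3 to 117.3 CPM in FI3KO and 37.2 to 41.7 in WT within replicates 1 and 2, and overlapped within replicates 3 to 6. The preadipocyte and fibroblast markers were at 997.6 to 1047 and 987.3 to 995.6 within replicates 1 and 2, and at 556.4 to 941.0 and 1582 to 2231 within replicates 3 to 6. Of these 10 markers 3 were lower, 1 higher and 6 not past the test in FI3KO over all 12 libraries. Over all genes 37.4% were called there, a share near that of these markers. Col1a1 was at a mean of 1010 CPM in WT and 271 in FI3KO, and Dcn at 27.3 and 68.5. The 10 skeletal muscle markers, nearly all of it Acta1, summed to 46.9 to 55.7 CPM in FI3KO and 71.8 to 74.5 in WT within replicates 1 and 2, and to 39.0 to 50.7 and 54.3 to 121.3 within replicates 3 to 6, with Ckm at a mean of 0.00948 CPM in FI3KO and 0 in WT. The part of these markers in the results of FI3KO, Cpt1b included, was not tested. Cpt2 differed between the sets by 0.47 ± 0.125 (adjusted p = 0.0161), with 0.25 in replicates 3 to 6 and -0.22 in replicates 1 and 2. Acadvl differed by 0.32 ± 0.107 (adjusted p = 0.0462), with 0.37 and 0.06 in the same order. Neither Acadvl nor Ehhadh passed the test in replicates 1 and 2 alone, Ehhadh being at 0.30 there (adjusted p = 0.0729) and 0.52 in replicates 3 to 6. Cpt1b was at -1.86 ± 0.515 in replicates 3 to 6 (adjusted p = 0.0123). In replicates 1 and 2 it was at -0.60 ± 0.294 and did not pass (adjusted p = 0.231). The difference between the sets did not pass the interaction test for Cpt1b (adjusted p = 0.265).

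**Figure D4:**
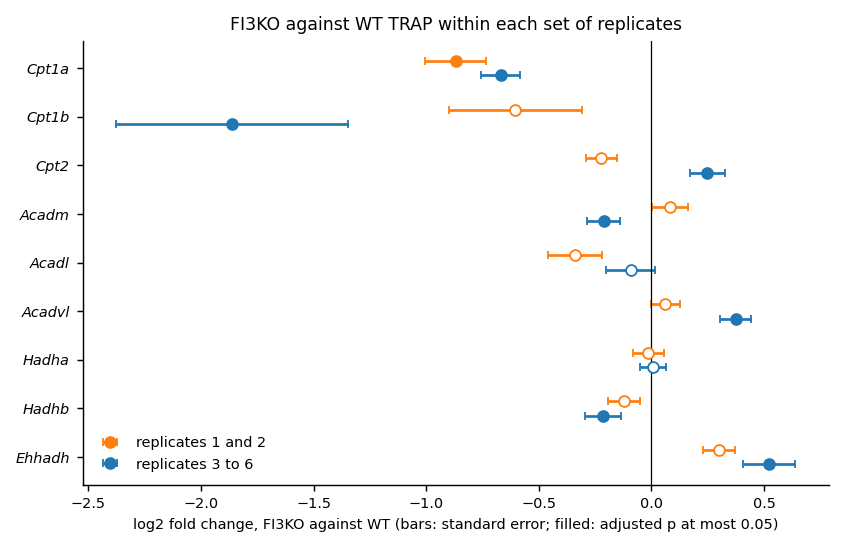
Log2 fold change, FI3KO against WT TRAP, fitted in replicates 1 and 2 (orange) and replicates 3 to 6 (blue). Bars are standard errors and filled points are past an adjusted p of 0.05. Cpt1a is filled in both sets at -0.87 and -0.67, while Cpt2 lies at -0.22 and 0.25.

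The regulators of these genes were read in the same fits. Ppara, the receptor most tied to oxidation genes, fell in FI3OE, at 6.89 to 8.10 CPM against 15.2 to 17.4 in WT (-1.12 ± 0.0905, adjusted p = 2.30e-06), and was at 0.10 in FI3KO (adjusted p = 0.647), where the replicate sets differed (0.38 in replicates 3 to 6, -0.41 in replicates 1 and 2, adjusted p = 0.047 for the difference). Pparg was at 0.02 and -0.11 and did not pass the test in either contrast. Ppargc1a was at -0.21 in FI3OE (adjusted p = 0.0478, a call lost in 10 of 17 alternatives) and at 0.41 in FI3KO (adjusted p = 0.0579). In FI3KO it passed the test in 5 of 27 alternatives, the fit of replicates 3 to 6 among them (0.64, adjusted p = 0.00609). Pdk4, a kinase that spares glucose when fat is oxidised, fell in FI3OE, with 56.6 to 58.0 CPM against 85.1 to 95.5 (-0.61 ± 0.0461, adjusted p = 1.32e-06, a call lost in 1 of 17 alternatives, the fit of all 18 libraries). In FI3KO Pdk4 was at 0.57 (adjusted p = 0.175), past the test in replicates 1 and 2 (0.91, adjusted p = 0.00895) and not in replicates 3 to 6 (0.30, adjusted p = 0.484), with replicates 3 and 4 at 37.2 and 38.9 CPM and the other FI3KO libraries at 105.9 to 143.7. Both libraries were also highest in Pparg, at 266.1 and 259.8 CPM, against 135.9 to 168.1 in the other FI3KO libraries.

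The remaining genes of the pathway were read by list, against 20.2% of all genes higher and 16.8% lower in FI3OE and 19.1% and 18.3% in FI3KO. Several of the counts are near these shares. In FI3OE, of 8 tested genes of fatty acid activation and the carnitine shuttle, 4 were higher, the acyl-CoA synthetases Acsl1 (0.18) and Acsl5 (0.42), the carnitine-acylcarnitine carrier Slc25a20 (0.40) and Crat (0.22), and 1, Acsl3 (-0.44), was lower. In FI3KO the same list had 0 higher and 3 lower, Acsl1 (-0.33), Acsl5 (-0.28) and Slc22a5 (-0.23), with Slc25a20 at -0.10 and not past the test. In replicates 3 to 6 the list had 1 higher, Crat (0.61), and 2 lower, and in replicates 1 and 2 it had 0 higher and 1 lower, with Crat at -0.37 there and Slc22a5 at -0.11 in replicates 3 to 6. These genes were picked out after their values were seen. The list medians were 0.15 in FI3OE and -0.11 in FI3KO. Of 16 other mitochondrial enzymes 3 were higher and 5 lower in FI3OE (median -0.06), and 4 higher and 3 lower in FI3KO (median 0.21), and Acaa2, the mitochondrial thiolase, was lower in both at -0.25 and -0.38. By replicate set, 10 of these 16 mitochondrial enzymes were higher and 2 lower in replicates 3 to 6, against 0 and 1 in replicates 1 and 2, where 50.6% and 3.56% of all genes were called in the respective sets, and 11 differed between the sets, as did 26.5% of all genes. Of the other peroxisomal enzymes 6 were higher and 3 lower in FI3OE (of 16, median 0.05) and 4 higher and 2 lower in FI3KO (of 15, median 0.07). Of 10 PPAR regulators 1 was higher and 5 lower in FI3OE (median -0.22), and 1 higher and 1 lower in FI3KO (median 0.02). Of the PPAR target genes outside oxidation 4 were higher and 4 lower in FI3OE (of 11, median -0.23), and 2 higher and 1 lower in FI3KO (of 9, median 0.43). Of 13 genes of mitochondrial content, 2 were higher and 5 lower in FI3OE (median -0.07), and 5 higher and 1 lower in FI3KO (median 0.20). In replicates 3 to 6 of FI3KO, 7 of 15 peroxisomal and 7 of 13 mitochondrial content genes were higher, with 2 and 0 lower, and in replicates 1 and 2, 0 of either in either direction.

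**Figure D5:**
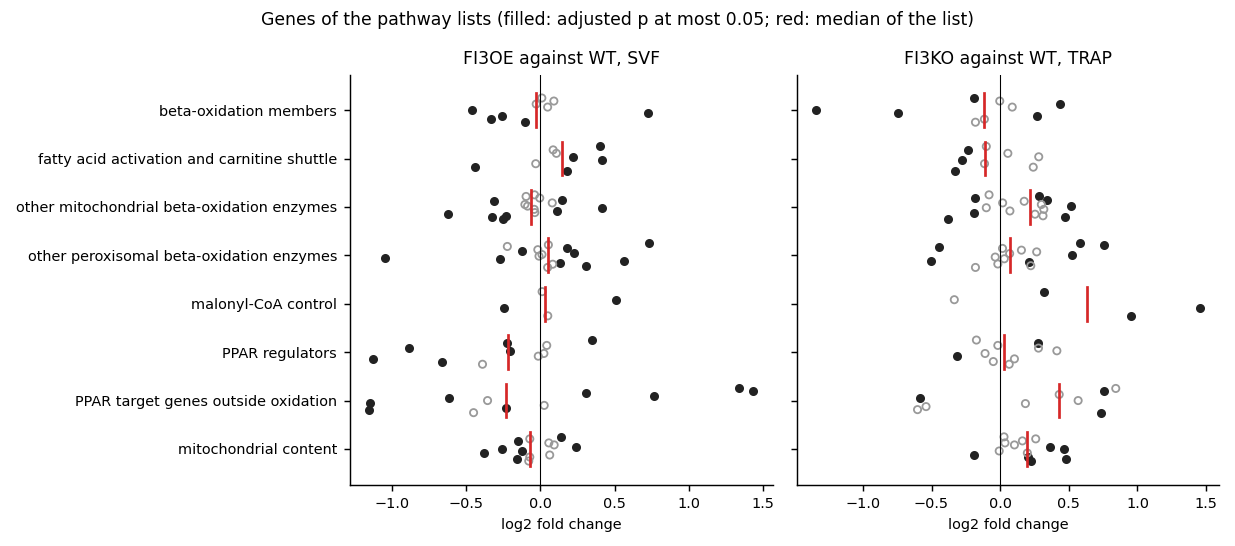
Log2 fold change of each gene of the pathway lists in FI3OE (left) and FI3KO (right). Filled points are past an adjusted p of 0.05, open points are not, and the red bar is the median of the list. The malonyl-CoA list has its median at 0.03 in FI3OE and 0.63 in FI3KO.

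Of the 4 genes listed for malonyl-CoA, which holds CPT1 back, 3 were higher in FI3KO, where 19.1% of all genes were, and Cpt1c at -0.33 did not pass the test. Acacb, the acetyl-CoA carboxylase of the mitochondrial surface, was higher by 1.46 (adjusted p = 0.000381), Acaca by 0.95 (adjusted p = 0.000383) and Mlycd, which removes malonyl-CoA, by 0.32 (adjusted p = 0.00239). In FI3OE 1 of the 4 was higher, Cpt1c at 0.51, chosen after its value was seen, and 1 lower, Acacb at -0.24. By the rule for naming, the FI3OE rises were Ucp3 (1.43), the lipid droplet gene Plin2 (0.77), Scp2 (0.73) and Acaa1b (0.56), and the falls Acot2 (-1.15), Ppara, Ppargc1b (-0.88) and Lpin1 (-0.66). In FI3KO they were Acacb, Acaca, Phyh (0.76) and Ucp3 (0.75) among the rises, and Plin2 (-0.58), Acaa1b (-0.51), Pecr (-0.44) and Acaa2 among the falls. Plin2 was at -0.95 in replicates 3 to 6 and 0.31 in replicates 1 and 2, Phyh at 1.09 and 0.19, Ucp3 at 1.34 and 0.07, and Acacb at 1.84 and 0.86, and each differed between the sets. The FI3OE and FI3KO contrasts share no library and were not tested against each other.

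Genes most like each member over the 18 libraries were found by the root mean square difference of log2 CPM profiles, each centred on its mean, among 9881 genes. Cpt1a was nearest to Yipf1 (0.182), Mpp1 (0.184) and Plpp3 (0.199), and Cpt1b to Ggt5 (0.611), Adam12 (0.612) and Mcc (0.613). Cpt2 was nearest to Herpud2, Snrnp200 and Smcr8, Acadm to Nfe2l1, Pgm2l1 and Psat1, and Acadl to Zfp655, Ficd and Maco1. Acadvl was nearest to Scaf11, Uqcrc1 and Crtc2, Hadha to Inpp5b, Xrn2 and Eif3m, Hadhb to Etfdh, Rrn3 and Hipk1, and Ehhadh to Sun2, Gpat4 and Fitm2. Among the members themselves Acadl and Hadhb were closest, at 0.115. With profiles centred within each group 0 of the 9 members kept their nearest gene, and Hadha and Hadhb were the closest members, at 0.0552.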

How the data were processed

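RNA was sequenced from 18 mouse libraries, 6 of SVF-derived adipocytes and 12 of TRAP. Ribosomal RNA had been depleted, and libraries were made with Nextera XT, which does not mark strand. The authors trimmed reads with fastp and quantified them with Salmon 1.4.0 with sequence and GC bias correction on GENCODE M24 of GRCm38, as the methods and the submitters' notes give it. The deposited values used are Salmon's estimated counts per transcript, the deposited TPM, and effective lengths (other length values). Counts were summed per gene (GENCODE M21 map, 117850 of 118733 transcripts matched), rounded, and given as CPM of the library total. TPM, with no TMM scaling, served for levels and ratios between genes, and fold changes between groups came from counts. In R 4.3.3, edgeR 4.0.16 was used (filterByExpr, TMM, quasi-likelihood test, Benjamini-Hochberg over all genes tested). Genes with adjusted p at most 0.05 were called, and the study's further cutoff on fold change was log2 1 in either direction. The methods were tested on simulated data. Of 100 genes altered there by 1.5 on the log2 scale, 96% were recovered in FI3OE, 89% in FI3KO and 87% between the WT groups. Of 100 altered by 0.5, 66%, 50% and 26% were recovered, in the same order. False calls numbered 30, 6 and 7. Many changes of the members are of 0.5 or less, so a member that did not pass the test may still differ. DESeq2 1.42.0, other scalings, filters, a length offset and libraries left out were alternatives. Same-numbered libraries did not deviate together (correlations -0.047 to 0.023 in SVF and -0.435 to 0.055 in TRAP), so no block was used. Genes named by rule were the 9 members, Irf3, Pdk4, Ppara, Pparg and Ppargc1a, up to 4 largest rises and 4 largest falls of the pathway lists per comparison with mean log2 CPM of at least 1, and the 3 genes nearest to each member. Values are also given for list genes that the rule did not name in FI3OE or FI3KO, such as Acsl1, Acsl5, Slc25a20, Crat, Slc22a5, Mlycd and Cpt1c. Members and lists were chosen with earlier results of these data known. A gene that the rule names between the WT groups is not reported here.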

Additional observations from a re-analysis of the deposited data

Results flagged for a closer look

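The FI3KO effect differed between the sets of replicates in 2 of the 9 enzymes, where 26.5% of all genes tested did so. For Cpt2 it was higher by 0.474 on the log2 scale in replicates 3 to 6 than in replicates 1 and 2, and for Acadvl by 0.316. Among the regulators and the pathway genes named, it was higher in replicates 3 to 6 by 0.798 for Ppara, 0.975 for Acacb, 0.911 for Phyh, 1.28 for Ucp3, 1.24 for Acot2, 0.569 for Scp2, 0.645 for Abcd2 and 0.978 for Crat, and differed by -1.25 for Plin2. Each difference passed an interaction test in edgeR over all genes.

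Ppargc1a of WT TRAP replicate 5 lay at 2.76 CPM, below the 3.87 to 4.51 of the other 5 libraries, with a gap of 0.634 of the range against a critical 0.625. It was the 1 value set apart in 28 groups of 6 libraries examined, where chance gives about 1.4.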

How the results depend on the processing

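Cpt1a kept its direction in each alternative of each comparison and Acadm in FI3OE, and both kept their call at an adjusted p of 0.05, while with the fold cutoff added neither was called in FI3OE, nor Cpt1a in FI3KO. With an offset for transcript length, 3800 genes passed in FI3OE and 2 members were lower, 1 member was lower between the WT groups, and in FI3KO Hadha turned to 0.15, Hadhb to 0.075, Irf3 to 0.71 and Ppara to -0.011, while Cpt2 between the WT groups turned to 0.017. In a fit of all 18 libraries, 1572 genes passed in FI3OE and 1 member was lower, and Cpt2 between the WT groups was 0.0096. With the fold cutoff, 583 genes passed in FI3OE with 0 members higher and 0 lower, 901 in FI3KO with 0 higher and 1 lower, and 7719 between the WT groups with 3 higher and 1 lower. With plain library totals, an alternative chosen after seeing the data, Hadhb in FI3OE was -0.0076, and between the WT groups 4 members were lower, Pdk4 was -0.39 and Pparg -0.23. With replicates 1 and 2 only, 500 genes passed in FI3KO, 0 members were higher and 1 lower, and Cpt2 was -0.22, Acadm 0.083, Ppara -0.41 and Ppargc1a -0.087. With replicates 3 to 6 only, Hadha was 0.0070 in FI3KO and Pdk4 was -0.085 between the WT groups, the latter chosen after seeing the data. Without a filter on low counts Hadha was 0.0055 in FI3KO and Cpt2 0.031 between the WT groups, where Pdk4 was -0.11 with at least 10 counts in every library. The causes were not tested.

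Leaving out 1 library at a time gave 1 to 4 members lower in FI3KO, with 1 left without FI3KO replicate 3 or 4 or WT replicate 3, 4 or 6. It gave -0.017 to 0.047 for Hadhb, -0.078 to 0.021 for Ehhadh and -0.016 to 0.054 for Pparg in FI3OE, -0.039 to 0.018 for Hadha in FI3KO, and -0.045 to 0.030 for Cpt2 and -0.0033 to 0.12 for Pdk4 between the WT groups. Replicate numbers did not pair the libraries, with 1 library in SVF and 0 in TRAP correlating best with its own number. With a replicate block, 5658 genes passed in FI3OE against 5960 without, 3632 in FI3KO against 5095, and 12522 between the WT groups against 13195, with Cpt2 at 0.10 there. With protein-coding transcripts alone 4 members kept their place in the order of WT SVF-derived adipocytes and 4 in that of WT TRAP, and with profiles centred within groups 0 kept their nearest gene. Cpt1b, with 11 to 138 reads per TRAP library, is the member most limited by depth.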
